A study of Mus musculus with 7 samples.

Results

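The 10 genes described here encode proteins of the regulated secretory granule and enzymes that cut prohormones inside it. They are 6 proteins of the granin class (Chga, Chgb, Scg2, Scg3, Scg5 and Vgf), the convertases Pcsk1 and Pcsk2, the convertase inhibitor Pcsk1n and the carboxypeptidase Cpe. They were chosen by name out of the 55536 genes of the deposited table, with the genotype difference already known and with Scg5 and Scg2 already seen to move in opposite directions. Their values are therefore a description of these libraries, and no p-value is given for them. RNA was sequenced from freshly sorted EPCAM-positive medullary thymic epithelial cells (mTECs) of mouse thymus, lysed for SMART-seq, a method that makes cDNA over the whole transcript from few cells. The 3 Cre-positive samples, numbered 45, 76 and 80 in their labels, were Cre(+) Ikzf1fl/fl Pou2f3-/-. The 4 Cre-negative samples, numbered 46, 48, 75 and 77, were Cre(-) Ikzf1fl/fl Pou2f3-/-. Both groups thus lacked Pou2f3, a transcription factor that tuft cells need, and both carried floxed alleles of Ikzf1, which encodes Ikaros. The comparison is therefore that of Cre on a background without Pou2f3. The Cre driver, the floxed exon and the animals' age were not given in the sources used here. Nothing in the labels ties the numbers to separate animals, so p-values measure only the spread between these 7 samples, part of which may be technical.

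Endocrine cells and neurons store peptide hormones in dense-core granules. Granins aggregate in the Golgi, help granules to form and are themselves cut into peptides. Prohormone convertases cut hormone precursors at pairs of basic residues, and carboxypeptidase E removes the basic residues left at the new ends. In the thymus, mTECs transcribe many such tissue genes, in part under the regulator Aire, and a fraction of them, the neuroendocrine mimetic cells, carry an endocrine programme.

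Recovered totals were 11383465 to 11623062 reads in Cre-positive libraries and 9815958 to 12599078 reads in Cre-negative libraries. Genes with at least 10 reads numbered 17169, 18014 and 17177 in Cre-positive 45, 76 and 80. They numbered 20251, 19417, 20467 and 20005 in Cre-negative 46, 48, 75 and 77. Every Cre-positive library thus had fewer such genes, and the part of this in the low values below was not tested. Ikzf1 had 1310.3, 1828.6 and 1677.5 normalized counts in Cre-positive 45, 76 and 80, and 1118.7, 1149.5, 1146.8 and 1219.0 in Cre-negative 46, 48, 75 and 77. Every Cre-positive value lay above the Cre-negative ones, and Ikzf1 was not called (log2 fold change 0.46, limma adjusted p = 0.0916). A sum over the whole gene does not check the loss of an exon. The markers of mTECs (Epcam, Krt5, Krt8, Aire and 5 others) summed to 17113 to 27118 CPM in Cre-positive libraries and 13932 to 27647 CPM in Cre-negative libraries, with Krt5 called higher and Aire and Foxn1 lower. Reads of 4 Y-linked genes stood at 3938 normalized counts in Cre-negative 48 and at 0 to 1 in the other 6 libraries. Neuronal markers summed to 108 to 155 CPM in Cre-positive libraries and 66.0 to 78.5 CPM in Cre-negative libraries, with Stmn2 called higher and Elavl3 and Rbfox3 lower among its 6 genes. Chromaffin cell markers summed to 3.33 to 6.62 CPM in Cre-positive and 10.7 to 26.0 CPM in Cre-negative libraries, with Th, 1 of its 3 genes, called lower. B cell markers summed to 320.5 to 777 CPM against 95.8 to 209.9 CPM, with 1 of 6, Igkc, called higher. Endothelial markers summed to 25.1 to 35.3 CPM against 35.6 to 53.6 CPM, with none of 5 called. Sums of the markers of T cells (52.1 to 213 against 72.6 to 139 CPM), macrophages and dendritic cells (638 to 939 against 539 to 661 CPM), fibroblasts (101.3 to 145 against 115 to 175 CPM) and Schwann cells (8.52 to 18.4 against 18.3 to 47.0 CPM) overlapped between the groups. Within them Lyz2 was called higher, and Adgre1, Itgam, Col1a1 and Col1a2 were called lower (Adgre1 37.8 ± 16.1 normalized counts in Cre-positive and 296.4 ± 113 in Cre-negative libraries, Col1a2 21.7 ± 15.5 and 108.4 ± 12.9, SD, n = 3 and 4). No marker on these lists was at 0 in all libraries, and their part in the values below was not tested.

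Of the 10 genes, Scg5 was several times higher in Cre-positive libraries, Scg2 was several times lower, and the other 8 were not called. Called here means an adjusted p under 0.05 in a limma fit over the 22874 genes that averaged 5 or more normalized counts. All 10 had such a mean, Pcsk1n only through the Cre-negative libraries. In that fit 13.8% of genes were called, 4.66% higher (1066 genes) and 9.11% lower (2084 genes) in Cre-positive libraries, and with library total scaling the split was 583 higher and 2629 lower. The 1 higher and 1 lower call among the 10 genes stand beside these shares, and nothing is read from them, since the genes were chosen on this contrast. The median log2 fold change was -0.76 over the 10 genes and -0.10 over all genes tested. The groups did not overlap for 1 gene in the higher direction, Scg5, where 10.9% of all genes did so. They did not overlap for 3 genes in the lower direction, Scg2, Vgf and Pcsk1n, where 14.5% of all genes did so (25.3% in either direction). edgeR, which called 11.2% of genes, also called Scg5 and Scg2 and no other of the 10. In bulk samples such as these, fewer cells of a type and less RNA per cell cannot be told apart. The plot of normalized counts by library shows every value.

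**Figure D1:**
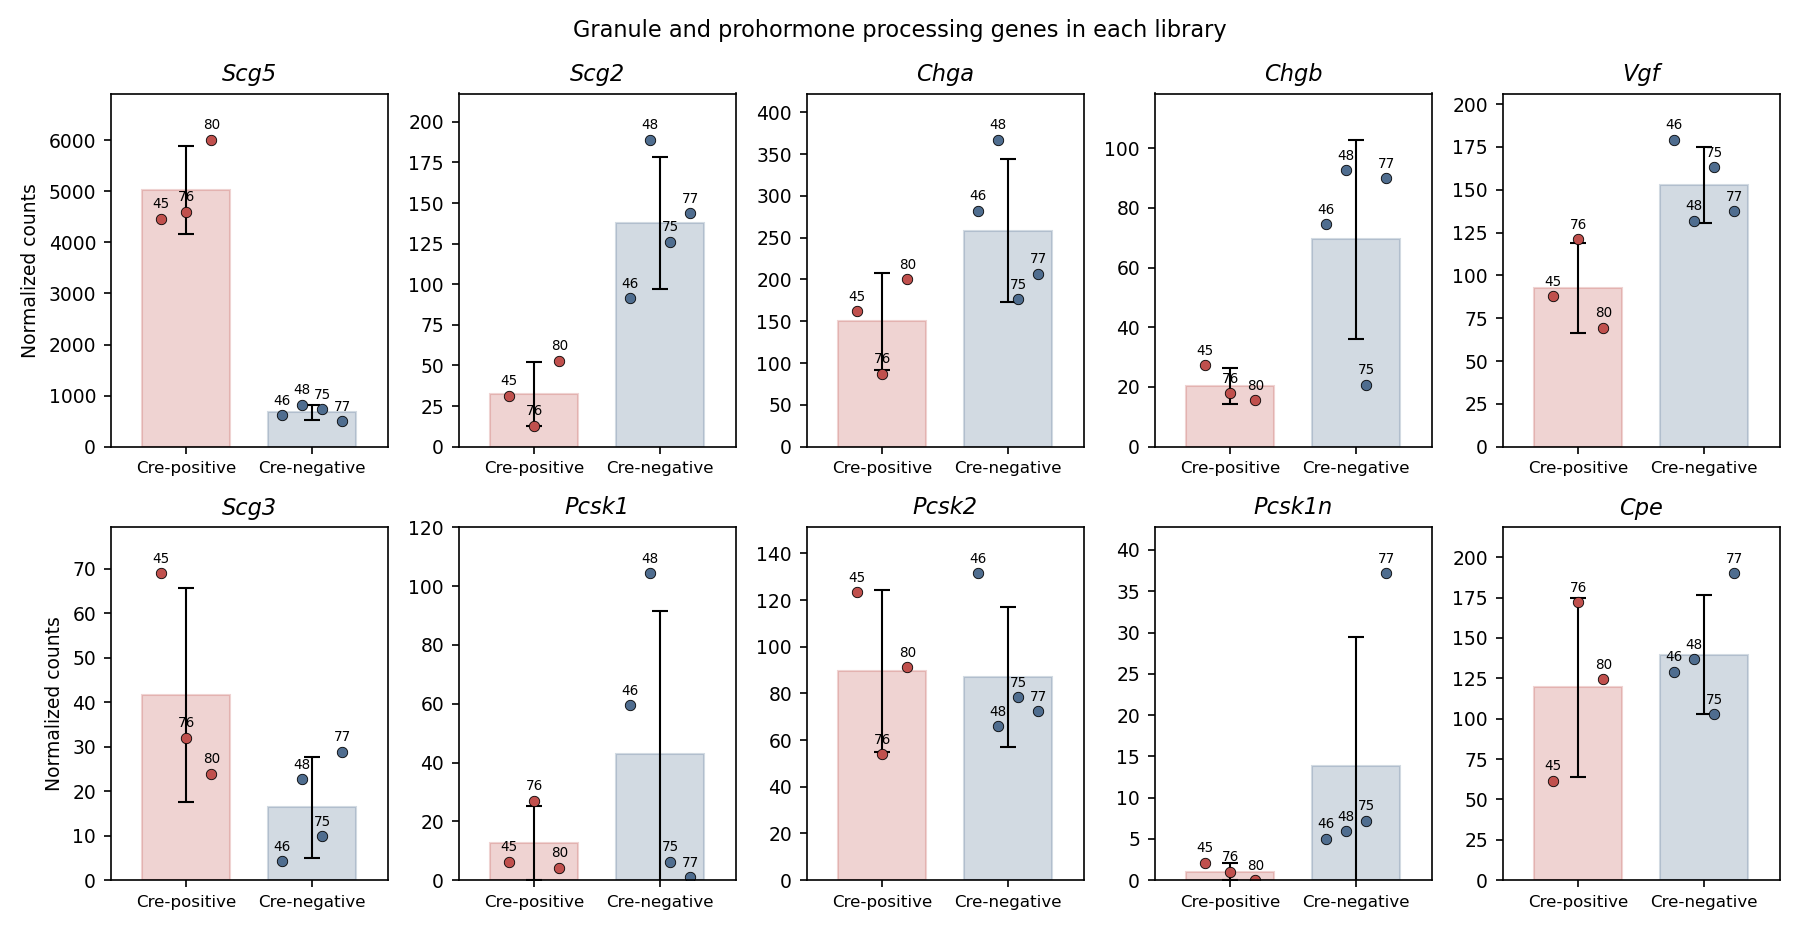
Normalized counts of the 10 genes in each library, on a linear axis from 0 that differs between panels. Points are libraries with their label numbers, bars are group means and error bars are 1 SD (n = 3 Cre-positive, n = 4 Cre-negative); the lower error bars of Pcsk1 and Pcsk1n run below 0 and are cut by the axis. The Cre-positive libraries of Scg5 sit between 4459.8 and 6013.4, all above the Cre-negative libraries, and those of Scg2 between 13.0 and 52.9, all below them.

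Scg5 encodes 7B2, a granule protein that chaperones the convertase PC2 and holds it inactive until it reaches the granule. The gene (ENSMUSG00000023236), at 113776362 to 113829121 on the minus strand of chromosome 2 in GRCm38, had 4459.8, 4600.5 and 6013.4 normalized counts in Cre-positive 45, 76 and 80, and 620.1, 824.4, 734.2 and 499.4 in Cre-negative 46, 48, 75 and 77. The lowest Cre-positive library was thus far above the highest Cre-negative one. The means were 5025 ± 859 in Cre-positive (SD, n = 3) and 669.5 ± 141 in Cre-negative libraries (SD, n = 4), a ratio of 7.5 and a log2 fold change of 2.92 (SE 0.20). Leaving out any 1 library gave log2 fold changes of 2.78 to 3.03. Between libraries with close label numbers the log2 difference was 2.64 for Cre-positive 45 against Cre-negative 46 and 48, and 3.12 for Cre-positive 76 and 80 against Cre-negative 75 and 77. Per length, Scg5 ranked 332, 295 and 246 among 55450 genes in Cre-positive 45, 76 and 80, and 1495, 1074, 1289 and 1728 in Cre-negative 46, 48, 75 and 77. Its nearest coding neighbours were on the same strand. Arhgap11a, 2370 bp upstream, had 308.2 ± 106 normalized counts in Cre-positive and 422.7 ± 121 in Cre-negative libraries (limma adjusted p = 0.331). Grem1, on the other side, had 656 ± 171 in Cre-positive and 457.1 ± 143 in Cre-negative libraries (limma adjusted p = 0.215). The groups of both neighbours overlapped, with log2 fold changes of -0.46 (SE 0.29) for Arhgap11a and 0.55 (SE 0.28) for Grem1. Whether a stretch wider than Scg5 changed was not tested.

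Scg2 encodes secretogranin II, the precursor of the peptide secretoneurin. The gene (ENSMUSG00000050711), at 79434669 to 79440120 on the minus strand of chromosome 1, had 31.3, 13.0 and 52.9 normalized counts in Cre-positive 45, 76 and 80, and 91.3, 189.1, 126.1 and 143.7 in Cre-negative 46, 48, 75 and 77. The groups did not overlap, and the Cre-positive libraries spread more widely around their mean (61.6%, SD over mean) than the Cre-negative ones (29.6%). The log2 fold change was -2.21 (SE 0.49), with a Cre-negative mean 4.25 times the Cre-positive one. It ran from -2.66 to -1.68 when 1 library was left out. Scg2 was called each time, which is a description only, since Scg2 was chosen on this contrast. With a covariate for Y-linked genes, under which 5.91% of genes were called lower, its log2 fold change was -1.98 and it was not called. That covariate is high in Cre-negative 48 alone, and leaving out Cre-negative 48 gave Scg2 a log2 fold change of -2.04. The values rest on 94 reads over the 3 Cre-positive and 580 reads over the 4 Cre-negative libraries. In the authors' deposited table, whose fold runs as Cre-negative over Cre-positive, the log2 fold changes were -2.91 for Scg5 and 2.09 for Scg2. Chgb, with 1.78, was the third of the 10 genes with an adjusted p under 0.05 in the authors' deposited table, where 21.8% of the genes with such a p passed that level.

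The promoters of these genes differ in the letters they hold, as shown for Scg5, Scg2 and the only other members with the palindromic cAMP response element. The windows run from 250 bases before to 50 after the start in RefSeq's annotation of GRCm38.p6, are written 5′ to 3′ on the gene's strand, and were found for 8 of the 10 genes, all but Vgf and Cpe. Capitals mark the cAMP response element TGACGTCA, which reads the same on both strands, or the Ikaros core TGGGAA, searched on both strands; the 2 do not overlap here. They cover chr2:113829042-113829341 for Scg5, chr1:79439977-79440276 for Scg2 (both minus strand), chr2:132781392-132781691 for Chgb and chr13:75089607-75089906 for Pcsk1 (both plus strand).
Scg5: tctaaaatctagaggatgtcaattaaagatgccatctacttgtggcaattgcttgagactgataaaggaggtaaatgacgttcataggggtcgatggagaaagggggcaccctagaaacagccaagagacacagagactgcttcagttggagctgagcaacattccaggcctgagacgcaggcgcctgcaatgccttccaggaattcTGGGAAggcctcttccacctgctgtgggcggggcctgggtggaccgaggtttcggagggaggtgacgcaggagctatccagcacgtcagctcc
Scg2: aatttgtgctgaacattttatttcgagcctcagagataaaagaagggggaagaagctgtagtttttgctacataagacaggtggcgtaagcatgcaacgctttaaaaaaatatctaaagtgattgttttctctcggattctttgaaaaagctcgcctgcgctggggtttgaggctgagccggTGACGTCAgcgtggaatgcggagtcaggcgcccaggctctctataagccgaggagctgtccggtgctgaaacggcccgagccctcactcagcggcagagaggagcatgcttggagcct
Chgb: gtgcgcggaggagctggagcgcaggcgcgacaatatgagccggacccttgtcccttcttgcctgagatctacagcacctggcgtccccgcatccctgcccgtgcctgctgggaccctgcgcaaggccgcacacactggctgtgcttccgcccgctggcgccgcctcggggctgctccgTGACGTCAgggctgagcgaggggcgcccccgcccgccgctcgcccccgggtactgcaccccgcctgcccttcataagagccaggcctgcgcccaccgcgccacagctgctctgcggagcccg
Pcsk1: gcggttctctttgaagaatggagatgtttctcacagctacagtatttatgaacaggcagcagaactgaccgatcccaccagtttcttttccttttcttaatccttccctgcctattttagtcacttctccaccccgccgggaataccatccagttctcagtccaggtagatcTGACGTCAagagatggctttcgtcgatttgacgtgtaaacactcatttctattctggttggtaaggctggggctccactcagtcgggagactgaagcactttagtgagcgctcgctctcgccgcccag

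The element TGACGTCA, the binding sequence of CREB, was in the windows of Scg2, Chgb and Pcsk1 (3 of 8), starting 68, 72 and 78 bases before the start. Of all 32851 promoters of that length, 1.79% hold it. Its shorter core TGACG, which lies within it, was in 7 of the 8 windows, all but that of Pcsk1n, and in 20.8% of all promoters. The window of Scg5 thus holds TGACG too, not marked by capitals above. TGGGAA was in 1 of the 8, that of Scg5, 43 bases before the start, and in 25.6% of all promoters. A match is a description of the letters and not a bound site.

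None of the other granins was called. Chga encodes chromogranin A, the standard marker of endocrine granules. It had 162.0, 87.1 and 200.3 normalized counts in Cre-positive 45, 76 and 80, and 282.4, 367.4, 176.6 and 206.8 in Cre-negative 46, 48, 75 and 77, with Cre-positive 80 above Cre-negative 75. Its log2 fold change was -0.81 (SE 0.35). Chgb, the related chromogranin B, had 27.2, 18.0 and 15.6 in Cre-positive 45, 76 and 80, and 74.6, 92.6, 20.7 and 89.9 in Cre-negative 46, 48, 75 and 77. Cre-negative 75 was the only library of its group within the Cre-positive range. The log2 fold change of Chgb was -1.56 (SE 0.60). Without Cre-negative 75 it was -2.06 and Chgb was called, in a fit that called 7.42% of genes lower. DESeq2, which called 18.2% of genes, also called it (-1.78).

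Vgf, a growth factor-inducible granule protein that is cut into several peptides, was the steadiest of the 10 genes within the Cre-negative group (14.5%, SD over mean). It had 87.8, 121.2 and 69.5 normalized counts in Cre-positive 45, 76 and 80, and 179.3, 132.0, 163.1 and 137.5 in Cre-negative 46, 48, 75 and 77. The groups did not overlap, though Cre-positive 76 came close to Cre-negative 48, and the log2 fold change was -0.74 (SE 0.32). Scg3 encodes a granin that tethers chromogranin A to the granule membrane. It had 69.0, 32.0 and 23.9 in Cre-positive 45, 76 and 80, and 4.2, 22.7, 9.9 and 28.9 in Cre-negative 46, 48, 75 and 77. Scg3 was thus the one gene beside Scg5 with a clearly higher Cre-positive mean (41.6 ± 24 against 16.4 ± 11.4), but its groups overlapped and it was not called (log2 fold change 1.45, SE 0.75). A gene of unknown function on the opposite strand, Gm37871, overlaps Scg3 and had at most 4.5 normalized counts in any library.

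The convertases differed from each other in how evenly they were read. Pcsk2 encodes PC2, the partner of 7B2. It had 123.3, 54.1 and 91.3 normalized counts in Cre-positive 45, 76 and 80, and 131.6, 66.0, 78.4 and 72.4 in Cre-negative 46, 48, 75 and 77. The ranges lay on top of each other, with a log2 fold change of 0.02 (SE 0.41), beside the 2.92 of its partner's gene Scg5. Pcsk1 encodes PC1/3, which cuts proopiomelanocortin and proinsulin. It had 6.3, 27.0 and 4.2 in Cre-positive 45, 76 and 80, and 59.5, 104.4, 6.3 and 1.0 in Cre-negative 46, 48, 75 and 77. Most Pcsk1 reads were thus in Cre-negative 46 and 48, and Cre-negative 77 had 1 read (exact Poisson 95% interval 0.0253 to 5.57 reads). The log2 difference was -3.45 for Cre-positive 45 against Cre-negative 46 and 48, and 1.66 for Cre-positive 76 and 80 against Cre-negative 75 and 77. The log2 fold change over all libraries, -0.78 (SE 1.24), was 0.09 without Cre-negative 48 and -1.82 without Cre-negative 77, and edgeR and DESeq2 gave -1.74 and -1.77. Overlapping antisense genes, Pcsk2os1 and Pcsk2os2, reached 8.0 and 28.8 normalized counts in single libraries, and whether reads were counted by strand was not given in the sources used here.

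Pcsk1n encodes proSAAS, an inhibitor of PC1/3, and was the least read of the 10 genes in Cre-positive libraries. It had 2.1, 1.0 and 0 normalized counts in Cre-positive 45, 76 and 80, and 5.0, 5.9, 7.2 and 37.2 in Cre-negative 46, 48, 75 and 77. These are 3 reads in all in Cre-positive and 56 reads in Cre-negative libraries, of which Cre-negative 77 held 36. The count of 0 in Cre-positive 80 has an exact Poisson 95% interval of 0 to 3.69 reads, for counting error only. The groups did not overlap, but the gap between 2.1 and 5.0 is a few reads, and Pcsk1n was not called (log2 fold change -2.54, SE 1.0). Its size depended on the method, with -1.92 without Cre-negative 77, -1.37 with a pseudocount of 5, -3.59 with edgeR and -3.75 with DESeq2. Eras overlaps it on the opposite strand and had reads in 1 library, Cre-negative 46, at 7.5 normalized counts. Cpe encodes carboxypeptidase E, which trims the convertases' products. It had 61.7, 172.2 and 124.6 in Cre-positive 45, 76 and 80, and 129.1, 136.9, 102.7 and 190.2 in Cre-negative 46, 48, 75 and 77. Its ranges overlapped throughout, with a log2 fold change of -0.31 (SE 0.38) that was 0.10 without Cre-positive 45.

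**Figure D2:**
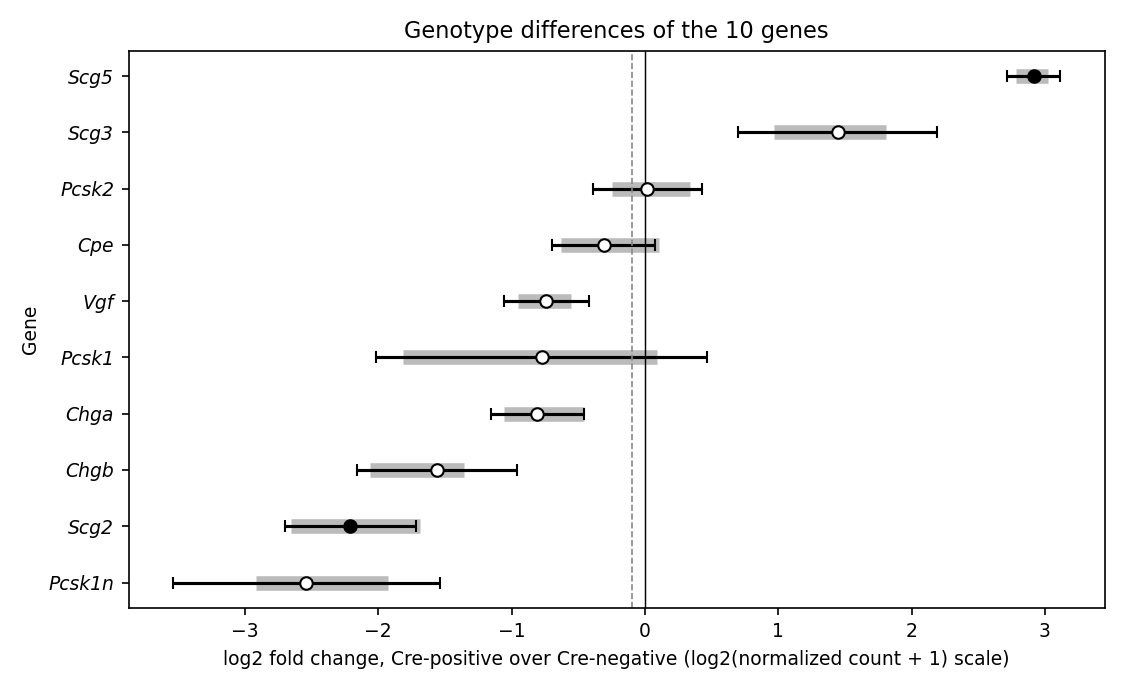
Log2 fold changes of the 10 genes, Cre-positive over Cre-negative, from the limma fit over all genes on the log2(normalized count + 1) scale. Points are estimates with error bars of 1 SE, filled where the gene was called; grey bands span the 7 fits that each leave out 1 library, the solid line is 0 and the dashed line the median of all genes tested (-0.10). Scg5 at 2.92 and Scg2 at -2.21 lie on opposite sides, and the bands of Pcsk1, Pcsk2 and Cpe cross 0.

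Scaled per length, Scg5 made up most of the summed signal of the 10 genes in both groups except in Cre-negative 77, and its share was larger in Cre-positive libraries. Levels below are FPKM from recovered reads and the exonic length in GENCODE M21. Scg5 had 271.2 ± 41.2 FPKM in Cre-positive (SD, n = 3) and 41.8 ± 9.85 FPKM in Cre-negative libraries (SD, n = 4), the first of the 10 genes in both groups. Chga was the second in both groups, with 4.58 ± 1.66 and 9.23 ± 3.39 FPKM in Cre-positive and Cre-negative libraries. Scg2 was the third in Cre-negative libraries with 5.40 ± 1.82 FPKM and the sixth in Cre-positive libraries with 1.08 ± 0.65 FPKM. Scg5 made up 94.1%, 94.4% and 95.2% of the summed FPKM of the 10 genes in Cre-positive 45, 76 and 80, and 56.3%, 58.2%, 66.7% and 49.8% in Cre-negative 46, 48, 75 and 77. The other 9 genes together had 14.9, 15.2 and 15.9 FPKM in Cre-positive 45, 76 and 80, and 29.1, 39.0, 22.1 and 31.6 FPKM in Cre-negative 46, 48, 75 and 77. The sum of the other 9 was thus lower in each Cre-positive library than in any Cre-negative library, while the sum with Scg5 was higher in each (253.9 to 333.5 against 63.0 to 93.4 FPKM).

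**Figure D3:**
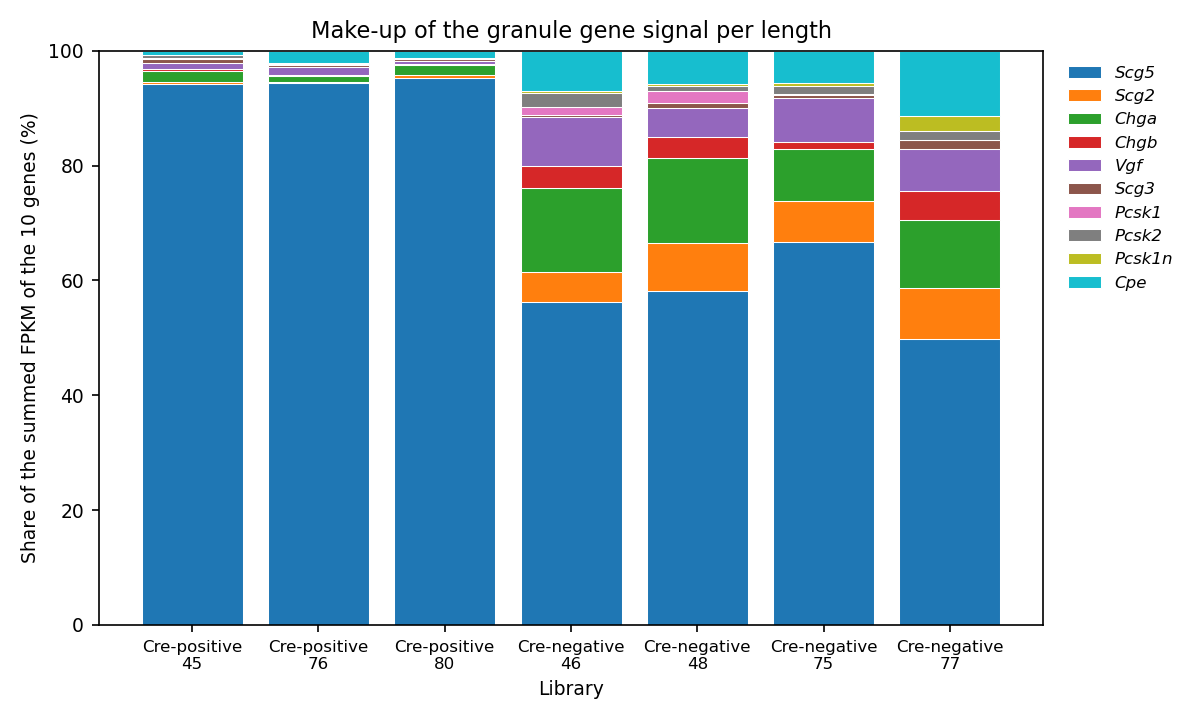
Share of each gene in the summed FPKM of the 10 genes (vertical axis, percent), 1 bar per library, Cre-positive libraries on the left. Scg5 takes 94.1% to 95.2% in Cre-positive and 49.8% to 66.7% in Cre-negative libraries.

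Genes outside the 10 that act in the same pathway were read from 7 lists, chosen with earlier results of these data known. Shares of all genes called are 4.66% higher and 9.11% lower, as above. None of 6 tested convertases other than Pcsk1 and Pcsk2 was called by limma (median log2 fold change 0.12). In the list of carboxypeptidases related to Cpe, 3 of 7 were lower and none higher (median -1.54). Cpd, a carboxypeptidase of the Golgi, fell to 506 ± 87.5 normalized counts in Cre-positive libraries, against 1474 ± 250 in Cre-negative libraries (SD, n = 3 and 4; log2 fold change -1.54, SE 0.20, limma adjusted p = 3.64e-04). Cpm, a membrane-bound carboxypeptidase, had a log2 fold change of -2.89 (limma adjusted p = 0.00502), or -2.25 without Cre-positive 80. Cpz fell by 3.06 (limma adjusted p = 0.0496). Cpz was not called without Cre-positive 45 or 80 or any single Cre-negative library (0.0605 to 0.134), its log2 fold change was -1.84 without Cre-positive 45 and -3.89 without 76, and edgeR did not call it (adjusted p = 0.114). Among 5 genes for trimming and modification of peptides 1 was lower and none higher (median -0.36). It was Qpct, the glutaminyl cyclase that caps peptide ends, with 5.53 ± 7.0 normalized counts in Cre-positive and 71.0 ± 28.8 in Cre-negative libraries (limma adjusted p = 0.00559). Its log2 fold change of -3.91 was -4.77 without Cre-positive 45. Pam, which amidates peptides, was picked out with its values in view. It had 976.6 ± 50.4 normalized counts in Cre-positive and 1176 ± 413 in Cre-negative libraries (limma adjusted p = 0.607).

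Of 19 tested genes of the granule membrane and of release, 15 were not called, 1 was higher and 3 were lower (median log2 fold change -0.41), counts beside the 4.66% and 9.11% of all genes. The monoamine loaders Slc18a1 and Slc18a2 fell by 1.43 and 1.65 on the log2 scale (limma adjusted p = 0.00135 and 0.00815). Slc18a1 had 162.1 ± 14.1 normalized counts in Cre-positive and 439.3 ± 46.4 in Cre-negative libraries, and its groups did not overlap. Sytl4, which docks granules at the membrane, had 1.73 ± 0.64 in Cre-positive and 42.0 ± 17.6 in Cre-negative libraries (log2 fold change -3.89, limma adjusted p = 0.00441). Sytl4 passed the filter at a mean of 5 only through the Cre-negative libraries. Cadps, a priming factor of dense-core granules, rose to 7592 ± 706 in Cre-positive libraries, against 4946 ± 443 in Cre-negative libraries (log2 fold change 0.62, limma adjusted p = 0.0127). Cadps was not called with library total scaling (0.0572) or without Cre-positive 45 (0.0605). In the list for granule formation 1 of 5 was higher and none lower (median -0.16). It was Rab2a, whose counterpart in worms acts in the maturation of dense-core granules, with a log2 fold change of 0.73 (limma adjusted p = 0.0336). Rab2a was not called without any single Cre-positive library or without Cre-negative 48 or 75 (0.0507 to 0.117), nor with library total scaling (0.105).

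The listed genes of hormone and neuropeptide precursors were mostly lower in Cre-positive libraries. Which enzyme cuts each precursor was not examined. Of 30 prohormone genes, all tested, 24 were called lower and 1 higher, beside 9.11% and 4.66% of all genes. Ins1, Nppa, Adcyap1, Trh and Crh averaged under 5 normalized counts in Cre-positive libraries and passed the filter only through the Cre-negative ones. The median log2 fold change of the 30 was -2.73, beside the -0.10 of all genes. The count of lower ones was 17 to 24 when 1 library was left out and 18 with edgeR. Aire, which drives part of the tissue genes of mTECs, had 2967 ± 308 normalized counts in Cre-positive and 4417 ± 767 in Cre-negative libraries (limma adjusted p = 0.0395), and its part in these values was not tested. Adcyap1, the precursor of the neuropeptide PACAP, had 1.0, 4.0 and 1.0 normalized counts in Cre-positive 45, 76 and 80, and 178.5, 171.4, 202.7 and 318.4 in Cre-negative 46, 48, 75 and 77 (log2 fold change -6.29, limma adjusted p = 3.40e-05). Tac1, the precursor of substance P, had 11.5, 2.0 and 4.2 in Cre-positive 45, 76 and 80, and 448.3, 200.9, 303.6 and 1716.3 in Cre-negative 46, 48, 75 and 77. Its log2 fold change was -6.33 (limma adjusted p = 1.48e-04), or -5.70 without Cre-negative 77, and limma-voom did not call it (0.0666). Ins2, an insulin gene, had 0, 9.0 and 159.9 in Cre-positive 45, 76 and 80, and 948.6, 559.5, 699.1 and 663.8 in Cre-negative 46, 48, 75 and 77. Its log2 fold change of -5.91 (limma adjusted p = 0.00486) was -4.14 without Cre-positive 45 and -7.80 without 80, edgeR gave -3.65 and called it, and DESeq2 gave -3.67 and did not (0.0826).

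Pth, the parathyroid hormone gene, had 209.0, 1.0 and 0 normalized counts in Cre-positive 45, 76 and 80, and 497.8, 361.5, 100 and 666.9 in Cre-negative 46, 48, 75 and 77. It was called (log2 fold change -5.47, limma adjusted p = 0.0208) although Cre-positive 45 lay inside the Cre-negative range. It was not called without Cre-positive 76 or 80 or without Cre-negative 46, 48 or 77 (0.0575 to 0.0824), and its log2 fold change was -7.88 without Cre-positive 45, -4.52 without 76 and -4.02 without 80. edgeR gave -2.55 (0.199) and DESeq2 -2.54 (0.411). The 1 higher gene, named after its values were seen, was Pthlh, the parathyroid hormone-like hormone that many epithelia make. It had 1518.3, 1250.8 and 2143.6 in Cre-positive 45, 76 and 80, and 482.7, 394.0, 462.1 and 417.7 in Cre-negative 46, 48, 75 and 77 (log2 fold change 1.86, limma adjusted p = 1.78e-04).

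**Figure D4:**
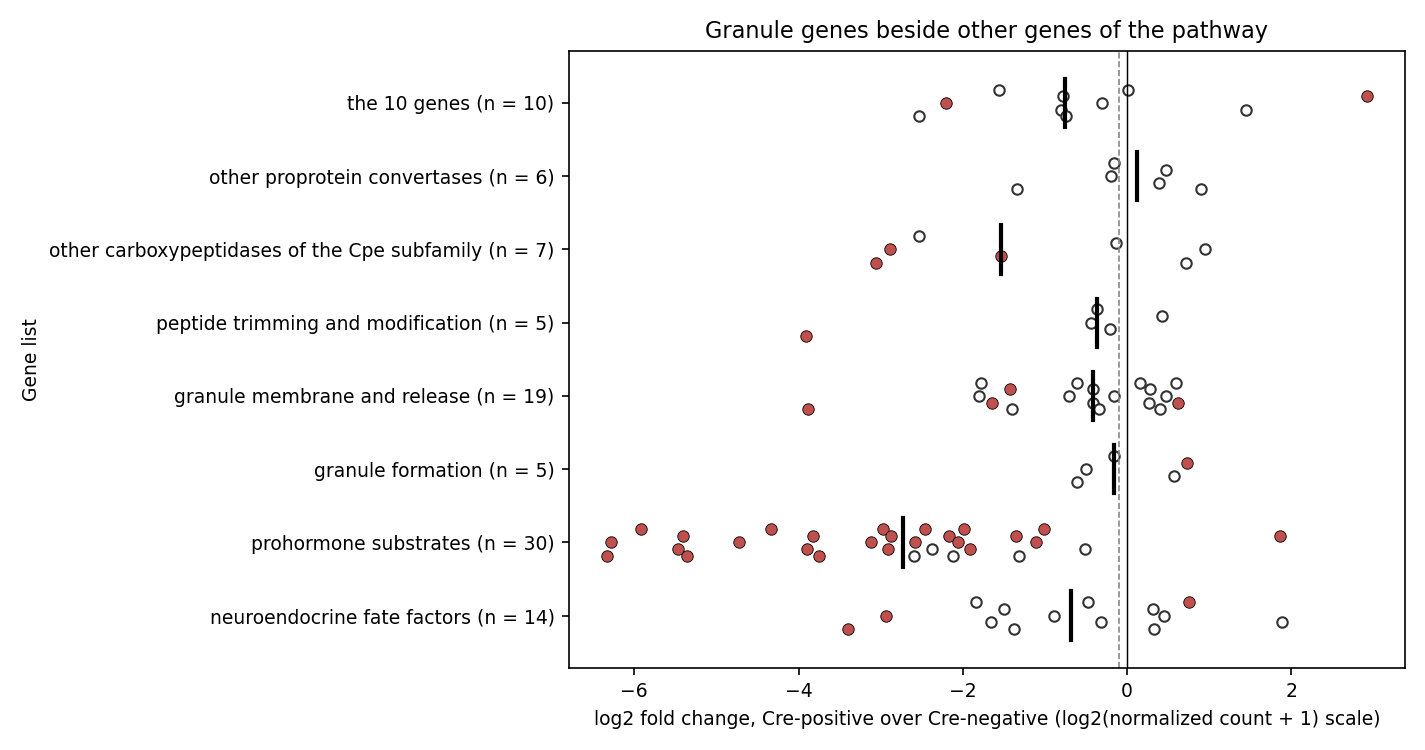
Log2 fold changes, Cre-positive over Cre-negative, of the 10 genes (top) and of the tested genes of 7 lists of the same pathway, on the log2(normalized count + 1) scale. Filled red points were called by limma over all genes, open points were not; thick ticks are list medians, the solid line is 0 and the dashed line the median of all genes tested. Most prohormone genes lie left of 0 (median -2.73), whereas the other convertases stand around it (median 0.12).

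Among factors of neuroendocrine fate, 2 of 14 tested were called lower (median log2 fold change -0.68), beside 9.11% of all genes. Another called gene of this list is not reported here. Neurod1 and Rfx6, factors of islet and gut endocrine cells, had 5.53 ± 7.15 and 6.43 ± 5.06 normalized counts in Cre-positive libraries, and 48.6 ± 28.7 and 52.8 ± 30.8 in Cre-negative libraries (limma adjusted p = 0.0341 and 0.0351). Neurod1 was not called without Cre-positive 76 or 80 or Cre-negative 46, 48 or 75 (0.0711 to 0.101), and its log2 fold change of -3.40 was -4.36 without Cre-positive 45 and -2.42 without 80. Rfx6 was not called without Cre-positive 45 or 80 or Cre-negative 46, 75 or 77 (0.0509 to 0.109), and its log2 fold change of -2.93 was -2.16 without Cre-positive 45. edgeR called neither (0.0828 for Neurod1 and 0.0516 for Rfx6).

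The genes whose pattern over the 7 libraries was most like that of Scg5 or Scg2 were ranked by Pearson's r on log2(normalized count + 1) among the 12825 other genes that averaged 50 or more normalized counts. The 7 libraries fall into 2 genotype groups, so a gene that separates them ranks high, and the r values are a description. For Scg5 they were Clu, a secreted chaperone (r = 0.997), Acaa2 of fatty acid oxidation (0.996), Pabpn1 of polyadenylation (0.994), the claudin Cldn9 (0.994) and the RNA-binding Khdrbs2 (0.994). Clu had 12086, 11829 and 15654 normalized counts in Cre-positive 45, 76 and 80. In Cre-negative 46, 48, 75 and 77 Clu had 2553, 3572, 3491 and 2318. The libraries ranked as in Scg5, except that Cre-positive 45 and 76 changed places. For Scg2 they were Gsr, the glutathione reductase (r = 0.995), Ceacam9 (0.987), Nxn (0.984), the gastric gene Gkn1 (0.983) and the catenin Ctnna2 (0.982). Gkn1 had 6.3, 1.0 and 43.6 in Cre-positive 45, 76 and 80, and 145.0, 256.1, 216.2 and 225.4 in Cre-negative 46, 48, 75 and 77, with Cre-positive 76 lowest and Cre-negative 48 highest, as in Scg2. Of the 10 granule genes, Chgb, Scg3, Pcsk1 and Pcsk1n averaged under 50 normalized counts and were not compared. None of the other granule genes was among either set.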

How the data were processed

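The authors deposited 1 table for the 7 samples. Per the file headers, it holds normalized counts, a signal in which the authors scaled each sample's gene counts by its size factor, given to 1 decimal. The authors also deposited variance-stabilized log2 values, a fold and log2 fold change (Cre-negative over Cre-positive), p-values raw and adjusted, and a GC percent per gene. The stabilized values, linear fold and GC were not used. Per the submitters' processing notes, STAR 2.7.9a, DESeq2 and build GRCm39 were used, but 95.2% of the 52403 genes shared with GENCODE M21 have its GRCm38 positions, so positions are given on GRCm38. The counting tool and its strand setting were not given in the sources used here.

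Whole reads were recovered from genes read in 1 sample alone, and 100% of values in each of the 7 samples came out whole within 0.0501 normalized counts. CPM and FPKM are these reads per library total. Genes that averaged 5 or more normalized counts were tested by limma 3.58.1 on log2(normalized count + 1), with its trend option and genotype as the only term, and Benjamini-Hochberg adjustment over all of them. Adjusted p values are limma's where no other tool is named. These fold changes compare means of logs. The pseudocount shrinks those of low genes, and where 1 library of a group is far from the others they can be larger than in count models (Pth -5.47, against -2.55 with edgeR). On the recovered reads, edgeR 4.0.16 called 2552 genes, and DESeq2 1.42.0 and limma-voom were run too, in R 4.3.3 (Python 3.11.15). The steps were checked on simulated reads. Sequences are from RefSeq's promoter table.

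The 10 genes, the lists and their tests were chosen with earlier results of these data known. Named genes were the 10 genes, Ikzf1 and Pou2f3, up to 4 called genes per list by size of change, and the 5 genes most like Scg5 and Scg2; 1 called gene of the fate factor list is not reported here. Pou2f3 itself had 7.33 ± 9.30 and 16.8 ± 10.9 normalized counts in Cre-positive and Cre-negative libraries (SD, n = 3 and 4) and was not called (limma adjusted p = 0.414). The labels name no molecular identifiers, so counting intervals cover counting error only.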

Additional observations from a re-analysis of the deposited data

Results flagged for a closer look

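Over 29 genes, the 4 Cre-negative libraries were examined for 1 that stands apart, and in 3 genes 1 library stood far from the other 3 by Dixon's ratio. Chance flags about 1 in 20 groups, and groups of 3 were not examined. Pcsk1n had 37.2 normalized counts in Cre-negative 77 and 5.0 to 7.2 in the other 3. Tac1 had 1716.3 in Cre-negative 77 and 200.9 to 448.3 in the other 3. Cpz had 119.8 in Cre-negative 75 and 31.0 to 32.1 in the other 3.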

How the results depend on the processing

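Of the 10 genes, Scg5 was called higher under every alternative tried. Scg5 was chosen on this contrast and the alternatives refit the same libraries, so its calls are no independent test. The count called lower was 1 in all alternatives except DESeq2 (2), the covariate for Y-linked genes (0) and leaving out 1 library (1 to 2). Log2 fold changes that changed sign were small or rested on few reads. Pcsk2 gave -0.18 with library total scaling, -0.14 with the Y-linked covariate and -0.25 to 0.34 when 1 library was left out. Pcsk1 gave 0.36 with that covariate, -1.74 with edgeR, -1.77 with DESeq2 and -1.82 to 0.089 when 1 library was left out, and Cpe gave -0.63 to 0.10. Over all genes, 1066 were higher, against 583 with library total scaling (under which the log2 fold change of all genes had a median of -0.29, beside -0.10), 558 with the Y-linked covariate and 590 to 1004 when 1 library was left out (626 without Cre-positive 45, 653 without 76, 590 without 80 and 660 without Cre-negative 46). The 2084 lower genes became 1234 with limma-voom, 1351 with the Y-linked covariate and 1309 (without Cre-negative 46) to 1739 when 1 library was left out. The 7 lists of other pathway genes held 90 genes, and over all genes 9.11% were called lower and 4.66% higher. Of the listed genes tested, 33 were lower (23 to 30 when 1 library was left out), and 24 of these 33 were prohormone genes. The higher ones were 4, against 2 with library total scaling and 2 (without Cre-positive 45) to 4 when 1 library was left out. The cause of these changes was not tested. Pcsk1n could not be fitted with a minimum mean of 20. Pcsk1n and Pcsk1 rest on 3 and 37 reads in Cre-positive libraries. A term for the range of label numbers (45 to 48 or 75 to 80), which no label calls a batch, gave 1132 higher and 2157 lower genes, and left Scg5 and Scg2 as the only calls among the 10 genes. No paired analysis was possible because the groups share no replicate number.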
